A study of Homo sapiens with 19 samples.

Results

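The regions described here were called for ERRα in every list of the study, that is in SKBr3 cells on vehicle, EGF and HRG, in BT-474 cells on vehicle, EGF and HRG, in pSKBr3 cells and in LRSKBr3 cells. They were chosen by their calls alone. Peaks of all 8 lists were joined into union regions wherever they shared 1 bp or more, and the members are the 6419 of 90452 union regions that hold at least 1 peak of each list. ERRα chromatin immunoprecipitation followed by sequencing (ChIP-seq) was carried out in HER2-positive breast cancer cell lines. SKBr3 and BT-474 cells spent 24 h in medium depleted of serum, and then 90 min with vehicle, with EGF or with HRG, the growth factors each at 100 μM. The pSKBr3 cells are the untreated parental line of LRSKBr3, a line made resistant to lapatinib, an inhibitor of EGFR and HER2, and maintained in 2 μM of it. Lists of the SKBr3, pSKBr3 and LRSKBr3 cells each join 2 ChIP libraries, and each BT-474 list comes from 1, with 1 input library, of vehicle cells, among the samples of that line. With 1 list per condition there is no spread between cultures, so shares carry 95% Wilson intervals that cover counting error only, and no P value is given. The read depth of the libraries is unknown, since the lists hold no tag counts.

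ERRα, the product of ESRRA, is an orphan nuclear receptor that binds DNA as a monomer or dimer at the ERR response element (ERRE), a short extension followed by the nuclear receptor core motif. With the coactivators of the PGC-1 family it is known for switching on genes of the respiratory chain, the tricarboxylic acid cycle and fatty acid oxidation. AP-1 is the dimer of FOS and JUN proteins, whose genes are among the early responders to EGF and HRG.

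The ERRE word TCAAGGTCA was sought on both strands within 100 bp of the region centre, which is the median of the centres of the strongest peak of each list. Below are the word and its 10 neighbours on each side at members near genes of energy metabolism, at the ESRRA promoter, near BATF and GRHL1, which encode an AP-1 family factor and a luminal factor, and at members with scores of 3100 or more in every list. They are shown so that the word can be read in its setting at promoters and at distal sites. Each is read 5′ to 3′ on the strand that holds the word, with the word in capitals, from GRCh37 (hg19).
ESRRA promoter, chr11:64072340-64072368, minus strand: cggagaaagcTCAAGGTCActgcggtgac
ATP5F1B promoter, chr12:57039557-57039585, plus strand: gttccccggcTCAAGGTCAtggggcggca
SDHB promoter, chr1:17380151-17380179, minus strand: cttgaattgcTCAAGGTCAcatggcaagc
NDUFAF5 promoter, chr20:13766029-13766057, minus strand: gggctgctggTCAAGGTCAgacggctagg
GAPDH promoter, chr12:6644143-6644171, plus strand: caaggagagcTCAAGGTCAgcgctcggac
IDH2 intron, chr15:90638824-90638852, plus strand: ctaggagagtTCAAGGTCAagatcaaaga
PDK2 exon, chr17:48185728-48185756, plus strand: ctcccacccaTCAAGGTCAtggtggcctt
BATF promoter, chr14:75988142-75988170, minus strand: tctttatgatTCAAGGTCAcctggtcaga
GRHL1 intergenic, chr2:10148396-10148424, plus strand: gctcagagcgTCAAGGTCAcccagaggtg
FRAT2 exon, chr10:99092935-99092963, minus strand: ccatctgtgtTCAAGGTCAcggtttgctg
ARF6 intergenic, chr14:50467540-50467568, minus strand: ctacatcttcTCAAGGTCAgttatccact

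Around the word the letters varied. Among the 773 ERRE words within 100 bp of the centres of the members, the base just before the word was C in 40.2%, T in 29.8%, G in 23.9% and A in 6.08%. The base just after the word was C in 34.9%. Of 1101 words of the form TNAAGGTCA in these windows, the second letter was C in 70.2%, G in 21.2%, A in 5.27% and T in 3.36%.

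For 3 intergenic members whose scores were 3100 or more in every list, the 201 bases around the centre are shown on the plus strand of GRCh37, with ERRE and AP-1 words (TGACTCA or TGAGTCA) in capitals. The member 176398 bp from a start of RYBP, which encodes a Polycomb complex subunit, holds both words, an AP-1 word first and an ERRE word after it. The members near DIPK1A and TRIB2 hold 1 ERRE word each.
RYBP, chr3:72319274-72319474: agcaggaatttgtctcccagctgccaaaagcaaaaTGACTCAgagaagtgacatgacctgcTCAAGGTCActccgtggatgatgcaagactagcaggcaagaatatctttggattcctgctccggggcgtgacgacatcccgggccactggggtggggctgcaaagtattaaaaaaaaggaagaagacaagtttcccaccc
DIPK1A, chr1:93459784-93459984: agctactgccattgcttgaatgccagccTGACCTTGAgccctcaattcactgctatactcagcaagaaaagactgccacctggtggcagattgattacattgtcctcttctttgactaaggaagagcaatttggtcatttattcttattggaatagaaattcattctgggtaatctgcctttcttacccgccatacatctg
TRIB2, chr2:13253175-13253375: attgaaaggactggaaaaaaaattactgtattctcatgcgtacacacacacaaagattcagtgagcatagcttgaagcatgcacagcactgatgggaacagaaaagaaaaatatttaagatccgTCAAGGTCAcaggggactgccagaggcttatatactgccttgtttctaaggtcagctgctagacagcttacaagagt

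The member with the most ERRE words is a tandem repeat in an intron, at chr18:77678347-77682901, 31968 bp from the nearest coding start, that of SLC66A2. It held 44 copies of the word over 2453 bp, with a median spacing of 38 bp. Its score was at least 3100 in each of the 5 SKBr3-derived lists, and 1261, 979 and 1650 in the BT-474 vehicle, EGF and HRG lists. The 300 bases around the middle copy hold 6 exact words, shown in capitals on the plus strand.
SLC66A2, chr18:77680333-77680632: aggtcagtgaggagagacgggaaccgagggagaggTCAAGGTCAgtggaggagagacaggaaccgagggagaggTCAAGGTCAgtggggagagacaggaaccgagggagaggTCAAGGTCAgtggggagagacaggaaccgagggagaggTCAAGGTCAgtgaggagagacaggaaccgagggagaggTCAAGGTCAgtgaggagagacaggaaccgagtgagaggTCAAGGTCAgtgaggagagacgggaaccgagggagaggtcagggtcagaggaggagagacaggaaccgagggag
The other 4 members with the most words, near AUTS2, SPIDR, AC024580.1 and MAP3K7, held 11, 7, 6 and 6 of them. Over all members, 1676 (26.1%) held the word somewhere in the region, 217 held 2 or more and 35 held 3 or more.

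Members were more numerous than the regions just outside the rule. Regions called in 1 list numbered 37662, in 2 lists 14730, in 3 lists 12601, in 4 lists 6337, in 5 lists 5897, in 6 lists 3490 and in 7 lists 3316. Of the 3316 regions called in 7 lists, 1098 (33.1%) lacked a pSKBr3 peak and 1069 (32.2%) lacked a BT-474 EGF peak. These are the shortest lists, with 22539 and 26832 peaks, whereas the others held 32183 to 41271. Each of the other lists was missing from 113 to 368 of the 7-list regions. The members took 16.7% of the peaks of the BT-474 HRG list, the longest, and 32% of those of the pSKBr3 list.

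**Figure D1:**
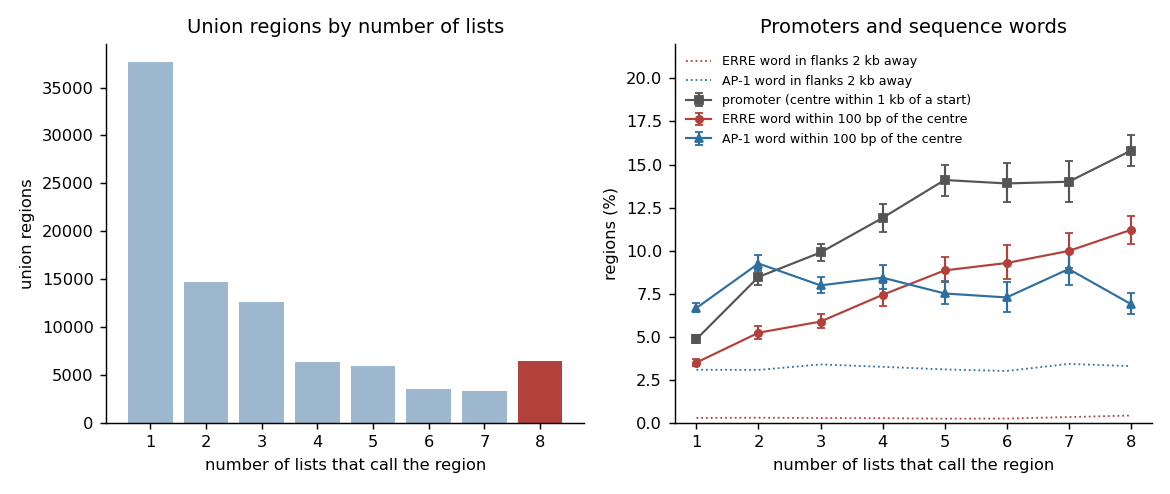
The left panel plots the number of union regions against the number of lists that call them, with the 6419 members in red. The right panel plots, with 95% Wilson intervals, the share of regions at a promoter and with an ERRE or AP-1 word, and as dotted lines the share of flanks with each word; the promoter share was 4.86% in regions of 1 list and 15.8% in members, and the ERRE share was 3.50% and 11.2%.

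The score of a peak is −10 log10 of its P value, so the cutoff of the lists corresponds to a score of 50, and many strong peaks share a score of 3100. Since the calls chose the members, their scores are given as a description. The strongest peak of the members had a median score of 718 on vehicle, 639 on EGF and 668 on HRG in SKBr3 cells, 350 in pSKBr3 and 815 in LRSKBr3 cells, and 655, 334 and 698 on vehicle, EGF and HRG in BT-474 cells. Placed among all peaks of its own list, the median member stood at the 76.3 percentile in pSKBr3 and the 77.8 percentile in BT-474 EGF, and between the 82.6 and 87.4 percentiles in the other 6 lists. Members held 44% to 62.2% of the top quartile of peaks of a list and 2.38% to 11.7% of the bottom quartile.

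Being called in every list did not mean being strong in every list. For 1555 members (24.2%) the score was under 80 in at least 1 list, and 126 (1.96%) had a score of 3100 or more in all 8. The lowest percentile of a member fell in the pSKBr3 list for 28.5% of members and in the BT-474 EGF list for 25.3%. Just inside the rule, the weakest member by its lowest percentile lay 60200 bp from HES1, a Notch target gene. It had scores of 111, 53 and 57 on vehicle, EGF and HRG in SKBr3, 105 in pSKBr3, 50 in LRSKBr3, and 68, 57 and 109 on vehicle, EGF and HRG in BT-474. The other 4 weakest lay near SCYGR1, SPSB4, LZTS1 and AP4E1, each with a lowest score between 50 and 51, and the one near LZTS1 had a score of 3100 on EGF in SKBr3 beside 50 in LRSKBr3. Just outside, the strongest 7-list region lay in an intron 1739 bp from a start of UCP2, which encodes a mitochondrial uncoupling protein, at chr11:73689530-73694953. It had no BT-474 vehicle peak, although the BT-474 EGF and HRG lists gave scores of 1463 and 3100 and the SKBr3-derived lists 1591 to 3200. The next 4 lay near DGLUCY, PREX1, ST6GAL1 and CEBPB, and lacked an SKBr3 HRG, an SKBr3 EGF, an SKBr3 vehicle and an SKBr3 HRG peak.

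The 126 members at 3100 or more in all lists share the same lowest percentile. The 10 first among them by mean percentile, and by position where that was tied too, lay near SHROOM3, ATP2A3, EVA1A, RYBP, MICOS10, MTMR12, MYO16, ASAP3, TRIM67 and CASZ1. The region near MICOS10, which encodes a subunit of the complex that shapes mitochondrial cristae, was centred 49 bp from its start, and the others lay 12838 to 331721 bp from the nearest coding start. Of the 126, 17 (13.5%, interval 8.60% to 20.5%) held an ERRE word within 100 bp of the centre, among them those of ESRRA, ATP5F1B and IDH2.

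The members were 1185 to 35478 bp wide, with a median of 2967 bp, and together they covered 24.0 Mb of the 206 Mb of all union regions. In 4969 of them (77.4%) every list gave exactly 1 peak. The centres of the strongest peaks of the 8 lists spread over a median of 460 bp (quartiles 235 and 911 bp). At least 1 base was covered by all 8 lists at once in 6301 members (98.2%), over a median stretch of 1226 bp, while 118 members were joined only through chains of peaks. The 178 members over 10 kb included the widest ones, near PTPN1, TGM2, TMEM123, FRMD8 and KCNMA1, which spanned 28829 to 35478 bp. At the region near PTPN1, the SKBr3 vehicle and EGF scores were 121 and 141, and the BT-474 vehicle and HRG scores were both 3100.

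Many members lay in runs along the genome. Of the 6419, 2875 (44.8%) had another member within 50 kb, and 62 clusters of 5 or more held 371 of them. The largest was a run of 14 members over 174 kb nearest to GSE1, a gene for a chromatin-associated protein, at chr16:85478926-85652814. A run of 10 members lay over 198 kb at IRF2BPL, and runs of 9 lay at EDN2, at ITPK1 and at IER5L. The cluster between ZNF710 and SEMA4B, with 8 members over 183 kb, included IDH2. Over the chromosomes, the density was 2.07 members per Mb, from 0.734 on X to 3.79 on chromosome 19, leaving out Y, where 0 of 15 union regions were members. The share of union regions that were members was 7.10% in all, and apart from Y it ran from 3.84% on chromosome 7 to 10.4% on chromosome 16.

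By position, 1014 members (15.8%, interval 14.9% to 16.7%) were promoters, meaning that the centre lay within 1 kb of the start of a protein-coding transcript. Another 3.24% lay in exons, 41.8% in introns and 39.1% between genes. The promoter share was 14.0% in regions of 7 lists (12.8% to 15.2%) and 4.86% in regions of 1 list (4.64% to 5.08%). Exon and intron shares were similar at 3.49% and 41.2% in regions of 1 list, and the intergenic share there was 50.4%. The median distance of a member to the nearest coding start was 24.4 kb, beside 28.9 kb for 7 lists and 59.7 kb for 1 list, and 1254 members (19.5%) lay over 100 kb away. The GC content of the 201-base window was 48.2% on average in members and 41.6% in regions of 1 list. Within promoters the order was the other way, with 56.7% in members and 58.4% in regions of 1 list.

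The ERRE word lay within 100 bp of the centre in 718 members, or 11.2% (10.4% to 12%). It lay in 0.421% of windows of the same width 2 kb to either side, and in 0.0933% of windows around all 55750 annotated coding starts. The share was 9.98% (9.01% to 11.0%) in regions of 7 lists, 7.43% in regions of 4 lists and 3.50% (3.32% to 3.70%) in regions of 1 list. The shorter word AAGGTCA, which the ERRE word contains, lay in 34.6% of members (flanks 4.11%) and 14.3% of regions of 1 list. Distal members, those that are not promoters, held the ERRE word in 12.4% (flanks 0.463%), and promoter members in 4.83% (flanks 0.197%). At promoters of regions called in 1 list the share was 0.820%. GC content moved with the number of lists too, and its part in these shares was not tested.

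The word was concentrated at the centre. In the central 50 bp there were 43.5 ERRE words per 1000 members, 35 per 1000 regions of 7 lists and 10.3 per 1000 regions of 1 list. At 200 bp to either side, members held 6.85 and 9.35 per 1000 in a bin of the same width. The AP-1 word had 17.3 per 1000 members in the central bin, beside 25.3 per 1000 regions of 7 lists and 20.3 per 1000 regions of 1 list. In the bin 50 bp to the right of it, members had 21.8 and regions of 1 list 16.9 per 1000.

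**Figure D2:**
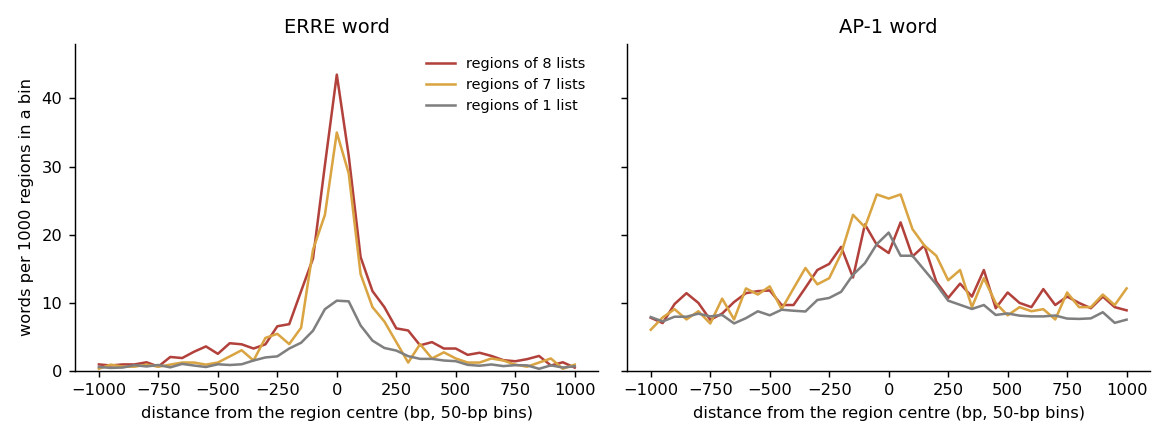
ERRE words (left) and AP-1 words (right) per 1000 regions in 50-bp bins are plotted against the distance from the region centre in bp, for regions of 8, 7 and 1 lists. The ERRE line of the members peaks at 43.5 in the central bin, that of regions of 1 list at 10.3, and the AP-1 lines stand at 17.3 and 20.3 there.

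With no word given, all 8-base words were counted on both strands within the windows and compared with the flanks. The word with the largest excess was CAAGGTCA, the last 8 letters of the ERRE word, among distal members (26.3%, flanks 1.79%), promoter members (15%, flanks 2.12%) and distal regions of 1 list (8.38%, flanks 1.34%). In distal members the 15 leading words overlapped or varied that sequence, such as AAGGTCAC (14.7%) and CCAAGGTC (12.1%). In promoter members the words at places 4 and 5 were made of C and G, CCCCGCCC (7.40%) and CCCGCCCC (6.80%). The first AP-1 word, ATGAGTCA, appeared among the 15 leading words of distal regions of 1 list (2.36%, flanks 0.776%) but not among those of the members. That does not mean that AP-1 words were rarer there, since the word at place 15 of distal members lay in 5.22%. TGACTCA or TGAGTCA lay in 7.83% of distal members (interval 7.14% to 8.57%) and 6.83% of distal regions of 1 list (6.57% to 7.09%).

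Within the members the share of ERRE words did not follow the lowest percentile over the lists. Ordered by their lowest percentile and cut into quartiles, the members had the word in 10.7%, 11.5%, 11.7% and 10.9% from the weakest to the strongest quartile, and the intervals overlapped. The promoter share over the same quartiles was 12.3%, 15.8%, 16.6% and 18.5%, and the median width was 2625, 2708, 3122 and 3450 bp. Among the strongest peaks of a list, those at members held the word more often than those elsewhere. For this comparison the window was placed on the centre of each peak of a single list. In the top score quartile, the share ran from 7.07% (SKBr3 HRG) to 10.2% (BT-474 EGF) at members and from 4.19% (LRSKBr3) to 6.28% (BT-474 EGF) elsewhere, and in each of the 8 lists the intervals of the pair did not overlap. Scores in that quartile were still higher at members, with medians of 1054 and 551 in the SKBr3 vehicle list. Within single lists the share at members did vary with the score. It was lower in the top score quartile than in the one below in SKBr3 HRG (7.07% and 9.48%) and LRSKBr3 (7.56% and 10.0%). The intervals of these pairs did not overlap, while in the other lists they did.

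The AP-1 word lay in 443 members (6.90%, interval 6.31% to 7.55%; flanks 3.29%). Regions of 1 list held it in 6.67%, regions of 2 lists in 9.25% and regions of 7 lists in 8.93%. Distal members had 7.83% and promoter members 1.97%, the latter below the 2.86% of their own flanks. ERRE and AP-1 words were not seen to go together, since 56 of the 718 members with an ERRE word held an AP-1 word (7.80%, interval 6.05% to 9.99%), as did 387 of the other 5701 (6.79%, interval 6.16% to 7.47%). In the top score quartile of the SKBr3 EGF list, 7.78% of peaks at members and 16.5% of peaks elsewhere held the AP-1 word. In the SKBr3 HRG list these shares were 6.37% and 11.5%, and in the SKBr3 vehicle list 6.31% and 6.67%, with overlapping intervals in the latter. The BT-474 HRG list had 7.02% and 8.47%. In the other 4 lists the share was higher at members, with 5.53% and 3.94% in pSKBr3, 5.84% and 4.68% in LRSKBr3, 5.93% and 5.41% in BT-474 vehicle and 7.03% and 6.34% in BT-474 EGF. The intervals overlapped in each of these 5 lists in the top quartile. In the quartile below it they did not overlap in pSKBr3 (8.22% at members and 4.21% elsewhere), LRSKBr3 (7.80% and 5.16%) and BT-474 HRG (5.71% and 8.4%).

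Other words set promoter and distal members apart. The ETS word CCGGAAG lay in 8.19% of promoter members (flanks 0.888%) and 0.981% of distal ones, and at 10.7% of all coding starts. The GC box GGGCGGG, bound by SP factors, lay in 13.1% of promoter members and 2.05% of distal ones, beside 33.2% of all coding starts and 19.4% of promoter regions of 1 list. Distal members held the FOXA word TGTTTAC in 5.53% (flanks 2.56%) and the TEAD word ACATTCC in 4.81% (flanks 2.97%). The GATA word AGATAAG, at 2.79% against 2.64%, and the CTCF word AGGGGGC, at 2.78% against 3.05%, lay near the level of the flanks. The palindromic oestrogen response element was found in 15 members, 0.234% (flanks 0.0234%).

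Genes were tied to members by distance from a transcription start of the GENCODE annotation. Of 19785 protein-coding genes, 1186 (5.99%) had a member within 1 kb of a start and 3573 (18.1%) within 20 kb. A region of any list lay within 1 kb for 8363 genes, so 14.2% of the promoters with a region had a member there. These shares are the background for the gene lists, which were chosen with earlier results of these data known.

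Genes of the respiratory chain, ATP synthase and the tricarboxylic acid cycle stood far above that background. Of their 109 genes, 69 (63.3%) had a member at a promoter and 75 had one within 20 kb. The subunits of complexes II to IV with cytochrome c had promoter members in 23 of 26 genes (88.5%, interval 71.0% to 96.0%). COX7A2L and UQCRB missed by 1 list, and UQCR11 had a region of 4 lists. ATP synthase genes had promoter members in 11 of 18, complex I in 20 of 37, and the tricarboxylic acid cycle with pyruvate entry in 15 of 28. For complex I, the members within 20 kb were the same 20 genes, and every one of its 37 genes had a region of at least 1 list at the promoter.

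**Figure D3:**
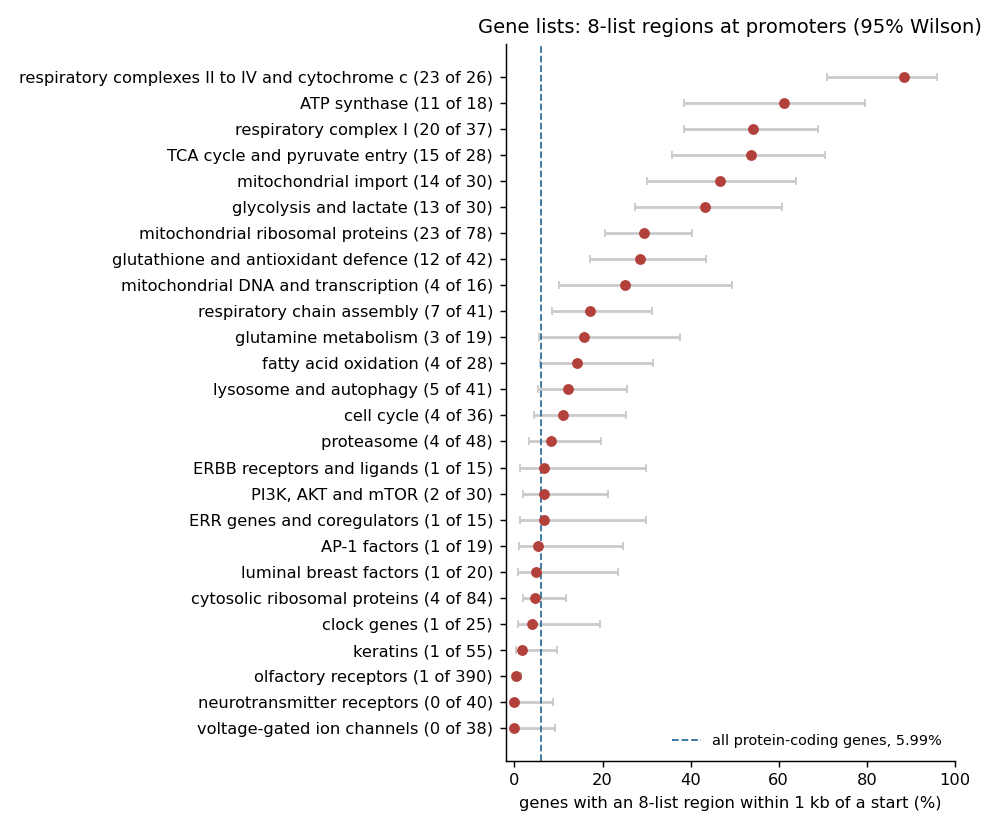
For each gene list, the point gives the percentage of its genes with a member within 1 kb of a start, the bar its 95% Wilson interval, and the label the number of such genes. The dashed line is the share of all protein-coding genes, 5.99%; the respiratory complexes II to IV lie at 88.5% and both neuronal lists at 0.

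The scores of these promoters differed between lists. In complex I, NDUFB5 had a score of 3100 in every list. NDUFS3, which encodes a subunit of the catalytic core, had scores of 3120, 2157 and 3100 on vehicle, EGF and HRG in SKBr3 and 3100 in both pSKBr3 and LRSKBr3, but 652, 126 and 78 on vehicle, EGF and HRG in BT-474. NDUFS5 was weak in SKBr3 vehicle and EGF (165 and 114) and stronger in pSKBr3 and LRSKBr3 (992 and 1178). In complexes II to IV, COX7B was at 3100 in every list but BT-474 EGF, where its score was 2345, and its region also lay within 20 kb of a start of PGK1. SDHD, which encodes a membrane anchor of succinate dehydrogenase, shared its member with TIMM8B. It had 3100 in all SKBr3-derived lists and 3212, 1790 and 1841 on vehicle, EGF and HRG in BT-474. SDHB held an ERRE word 28 bp from the centre and scores of 1173 in SKBr3 vehicle and of 385, 181 and 51 in the BT-474 vehicle, EGF and HRG lists. UQCRC1, a core subunit of complex III, had 2111 in SKBr3 vehicle and 3100 in SKBr3 HRG, pSKBr3 and LRSKBr3, and was called in BT-474 HRG with a score of 50. SDHB and UQCRC1 were thus members by a narrow margin, through the BT-474 HRG list.

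ATP5F1B and ATP5MC3, which encode the catalytic β-subunit and a subunit of the rotor ring of ATP synthase, had scores of 3100 in all 8 lists. In ATP5PD the SKBr3-derived scores ran from 621 to 3078 and the BT-474 scores were 58, 147 and 81 on vehicle, EGF and HRG. The tricarboxylic acid cycle had MDH1 at 3100 in every list and CS, the citrate synthase gene, at 3084 or more. IDH2, a mitochondrial isocitrate dehydrogenase, had 3100 in every list at a member 5069 bp from its start, with an ERRE word 20 bp from the centre. Near the cutoff lay IDH3B, at 1601 in SKBr3 vehicle and 3100 in LRSKBr3 but 50 in BT-474 HRG, and MPC1, of the mitochondrial pyruvate carrier, at 3015 or more in all SKBr3-derived lists but 51 in BT-474 EGF. PDK2 and PDK4, pyruvate dehydrogenase kinases, had distal members 12644 and 14750 bp from a start, and that of PDK2 held an ERRE word. The genes of the cycle without a member were DLD, DLST, IDH3G, PDHB, PDK1, PDK3, PDP1 and SUCLG2.

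Few of these promoters carried the exact ERRE word near the centre. Of the 69 promoter members of the energy genes, 2 (2.90%) held TCAAGGTCA within 100 bp, beside 4.97% of the other 945 promoter members. The shorter word AAGGTCA lay in 14 of the 69 (20.3%, interval 12.5% to 31.2%) and in 23.7% of the other 945. Over the whole region, 16 (23.2%) and 163 (17.2%) held the ERRE word. None of the 69 held an AP-1 word within 100 bp, with an upper Wilson limit of 5.27%, and 20 (2.12%) of the other 945 did. The ETS word lay in 7.25% of them and in 8.25% of the others, and the GC box in 13.0% and 13.1%.

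Other mitochondrial lists had lower shares at promoters. Mitochondrial import and chaperone genes had promoter members in 14 of 30 (46.7%, interval 30.2% to 63.9%), beside 54.1% of complex I genes (38.4% to 69.0%). Within 20 kb the shares were 56.7% and 54.1%. HSPA9, TIMM10 and the divergent pair HSPD1 and HSPE1, which share 1 region, were above the 95 percentile in every list. Mitochondrial ribosomal proteins had 23 of 78 (29.5%), factors of mitochondrial DNA and transcription 4 of 16 and respiratory chain assembly factors 7 of 41 (17.1%, interval 8.53% to 31.3%). Among the latter, NDUFAF5 had 3100 in every list and an ERRE word 46 bp from the centre. Fatty acid oxidation had 4 of 28 at promoters (14.3%, interval 5.70% to 31.5%, which holds the background of 5.99%), namely ACADM, ETFDH and the divergent pair HADHA and HADHB. CPT1A, which controls entry of fatty acids into mitochondria, had an intronic member 2024 bp from a start with scores of 2233 or more in every list.

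Glycolysis and lactate genes had promoter members in 13 of 30 (43.3%, interval 27.4% to 60.8%), among them ALDOA, ENO1, GAPDH, GPI, HK1, LDHA, PFKM, PKM and TPI1. ALDOA was at 3100 in every list but BT-474 EGF (3056). HK1 had 4 members within 20 kb. GAPDH was at 3100 in the SKBr3-derived lists and at 1505, 285 and 717 on vehicle, EGF and HRG in BT-474, with an ERRE word 42 bp from the centre. LDHB had 1538 in SKBr3 vehicle and 50 in BT-474 HRG. The list of glutathione and antioxidant genes had promoter members in 12 of 42 (28.6%, interval 17.2% to 43.6%). SOD2, the mitochondrial superoxide dismutase, had a member 10 bp from its start with scores of 586, 352 and 1520 on vehicle, EGF and HRG in SKBr3, 1737 in pSKBr3 and 2366 in LRSKBr3, but 106, 68 and 64 in BT-474. NQO1 and GSR, by contrast, were higher in BT-474 vehicle (1426 and 1384) than in SKBr3 vehicle (436 and 550). No member lay within 20 kb of a start of GPX1, where the nearest regions reached 7 lists, or of SOD3, with 3. Glutamine genes had 3 of 19 at promoters (15.8%, interval 5.52% to 37.6%, which also holds the background), namely GOT1, GOT2 and SLC3A2, with GOT1, an aspartate aminotransferase, at 3100 in every list. Within 20 kb they had 7 of 19 (36.8%, interval 19.1% to 59%), beside 18.1% of all genes. The number within 10 kb was 4 of 19, beside 2525 of all 19785 genes, so the excess rests on the wider limit.

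The interval at promoters held the background for several lists outside metabolism too. PI3K, AKT and mTOR genes had 2 of 30 (RPS6KB2 and RPTOR), cell cycle genes 4 of 36 (CCNE1, CDC25B, CDK6 and E2F2), the proteasome 4 of 48, cytosolic ribosomal proteins 4 of 84 and lysosome and autophagy genes 5 of 41. Within 20 kb, lysosome and autophagy genes had 13 of 41 (31.7%, interval 19.6% to 47%), above the 18.1% of all genes. Within 10 kb these genes had 7 of 41, beside 2525 of all 19785 genes, so the excess rests on the wider limit. Neuronal lists, chosen for comparison, had no promoter member for any of 38 voltage-gated ion channel genes, with an upper Wilson limit of 9.18%, or of 40 neurotransmitter receptor genes, with one of 8.76%. Within 20 kb, CACNA1G was the single ion channel gene with a member. Olfactory receptors had 1 of 390 at promoters (0.256%, interval 0.0453% to 1.44%), below the background, and keratins 1 of 55 (1.82%, interval 0.322% to 9.61%), KRT8.

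AP-1 factor genes and luminal factor genes had members at a distance rather than at promoters, but this was not particular to them. Keratin genes, with 1 of 55 at promoters, had 15 of 55 within 20 kb (27.3%, interval 17.3% to 40.2%). Cytosolic ribosomal protein genes, with 4 of 84 at promoters, had 18 of 84 within 20 kb (21.4%). AP-1 factor genes had 1 of 19 within 1 kb and 10 of 19 within 20 kb (52.6%, interval 31.7% to 72.7%), beside 18.1% of all genes. Within 10 kb they had 4 of 19, beside 2525 of all 19785 genes, so the count rests on the wider limit. Their member within 1 kb belonged to BATF and held an ERRE word 15 bp from the centre, while FOS, FOSL1, FOSL2, JUNB and ATF3 had members 1196 to 17968 bp from a start. ATF3 scored 924, 1590 and 1733 on vehicle, EGF and HRG in SKBr3. Luminal factor genes had 1 of 20 within 1 kb, 5 within 10 kb and 9 within 20 kb, with members near GRHL1, ELF5, FOXA1, SPDEF, TFAP2A and XBP1. The score of the member near XBP1 was 2710, 1635 and 2593 on vehicle, EGF and HRG in SKBr3 and 3100 in each of the BT-474 lists. Of the clock genes, 7 of 25 had a member within 20 kb, among them BMAL1 at its promoter. ERBB receptors and ligands had 2 of 15 within 20 kb, ERBB3 at its promoter with scores of 2000 or more in every list, and EREG, which encodes a ligand of EGFR.

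The ESRRA promoter itself held a member, at chr11:64070021-64074779, centred 556 bp from a start and with a score of 3100 in every list. Among ERR genes and coregulators, 1 of 15 had a member within 1 kb (6.67%, background 5.99%). ESRRG had a region of 6 lists at its promoter, PPARGC1B one of 7 lists within 20 kb, and PPARGC1A one of 1 list. TFF1 had a region of 5 lists at its promoter and was no member.

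Ranks of the members within each list were compared, since scores depend on the depth of a library. A rank is the percentile of a member's score among the 6419 in that list, with ties given their middle place. The range of a member's ranks over the 8 lists had a median of 46.6 points (quartiles 32.2 and 61.7), and 653 members (10.2%) stayed within 20 points. Over the 6419 members, Spearman's rho between ranks was 0.62 to 0.84 within the SKBr3-derived lists, 0.85 to 0.91 within BT-474, and 0.27 to 0.47 between them. These are descriptions over regions that share libraries, and the growth factor lists of BT-474 have no input of their own among the samples.

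All 3 BT-474 ranks lay above all 5 SKBr3-derived ranks for 1251 members (19.5%), and below them for 1219 (19.0%). The largest gap in favour of BT-474 was 85.9 points, at an intronic member nearest to the start of PDZD2 at chr5:31782226-31788794. There the scores were 58, 91 and 94 on vehicle, EGF and HRG in SKBr3, 52 in pSKBr3 and 120 in LRSKBr3, against 3100, 2724 and 3100 in BT-474. Members near TBX3, MID1IP1, DMD and NIN followed, with gaps of 72.0 to 76.8 points. The largest gap the other way was 79.1 points, at an intronic member near PIPOX at chr17:27431910-27437983 that holds an ERRE word. It had 3100 in each of the SKBr3-derived lists and 152, 93 and 167 on vehicle, EGF and HRG in BT-474. Members near ABCC1, CPPED1, FGFR2 and PROSER2 followed, and that of FGFR2, a fibroblast growth factor receptor, had 3100 in the SKBr3-derived lists and 226, 93 and 181 in BT-474.

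The members on each side differed in position and composition. Of those higher in SKBr3-derived lists, 24.1% were promoters (21.8% to 26.6%), and of those higher in BT-474, 5.92% (4.74% to 7.36%). Their mean GC content was 52.5% and 43.6%. The GC box lay in 6.81% (5.53% to 8.36%) and 1.28% (0.789% to 2.07%), and the FOXA word in 3.86% (2.91% to 5.09%) and 7.35% (6.03% to 8.93%). The ERRE word did not set them apart, at 11.0% and 11.7%. By chromosome, members higher in BT-474 made up 37.8% of those on chromosome 18 and 11.1% of those on chromosome 22. The part of GC content and chromosome in these ranks was not tested.

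Energy gene promoters ranked higher in the SKBr3-derived lists. Their 69 members had a median rank of 83.5 in SKBr3 vehicle, 73.9 in EGF and 83.2 in HRG, 96.3 in pSKBr3 and 93.2 in LRSKBr3, against 63.5, 47.7 and 41.9 on vehicle, EGF and HRG in BT-474. For 35 of them (50.7%), all SKBr3-derived ranks lay above all BT-474 ranks, and for none was it the reverse. The other 945 promoter members ranked at a median of 44.9 to 70.2 in the SKBr3-derived lists and 37.7 to 47.2 in BT-474, and of all 1014 promoter members, 294 (29%) ranked higher in every SKBr3-derived list. The same pattern held for 12 of the 23 promoter members of mitochondrial ribosomal protein genes and 6 of the 13 of glycolysis genes. The ranks of 96.3 in pSKBr3 and 93.2 in LRSKBr3 are those of the members tied at a score of 3100 in each list.

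**Figure D4:**
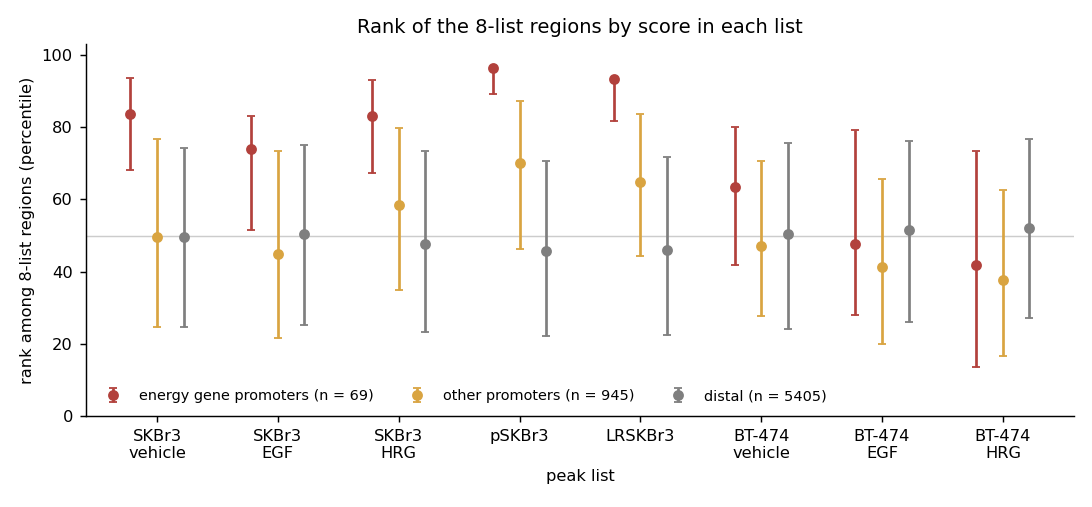
The rank by score among the members, as a percentile, is plotted for each list; points are medians and bars run from the lower to the upper quartile. Energy gene promoters (69) have medians of 73.9 to 96.3 in the SKBr3-derived lists and 41.9 to 63.5 in BT-474, while distal members (5405) stay between 45.7 and 52.2.

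The AP-1 word was more frequent at members that ranked higher on growth factors. Each growth factor list was compared with the vehicle list of its own line, which EGF and HRG share, and members that moved by over 20 points were counted. In SKBr3 cells 787 members (12.3%) ranked higher on EGF and 743 (11.6%) lower. The AP-1 word lay in 18.7% of the former (16.1% to 21.6%) and 1.88% of the latter (1.13% to 3.14%), beside 6.90% of all members. On HRG, 1171 (18.2%) ranked higher and 1195 (18.6%) lower, with the AP-1 word in 10.9% (9.27% to 12.8%) and 4.52% (3.48% to 5.85%). In BT-474 cells 357 (5.56%) ranked higher on EGF and 388 (6.04%) lower, with 10.9% (8.09% to 14.6%) and 5.93% (3.98% to 8.74%), intervals that overlapped. On HRG, 588 (9.16%) ranked higher and 546 (8.51%) lower, with 16.3% (13.6% to 19.5%) and 2.38% (1.4% to 4.03%). The ERRE word lay in 16.5% of members that ranked higher in BT-474 on EGF and 13.6% on HRG, and in 8.25% and 8.42% of those that ranked lower. In SKBr3 it was 11.9% and 8.48% for EGF, and 8.71% and 10.0% for HRG, with overlapping intervals in both. Promoters made up 34.8% and 36.8% of the members that ranked lower in BT-474 on EGF and HRG, and 5.60% and 4.42% of those that ranked higher. In SKBr3 they made up 15.2% and 6.28% of the members that ranked lower on EGF and HRG, and 8.77% and 17.8% of those that ranked higher, so that HRG went the other way there.

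Both growth factors ranked above vehicle in both lines at 753 members (11.7%), of which 14.6% held the AP-1 word (12.3% to 17.3%). Both ranked below vehicle in both lines at 894 (13.9%), of which 2.24% did (1.45% to 3.43%). The patterns in which the lines went opposite ways held 566 (8.82%) and 588 (9.16%) members. EGF and HRG share the vehicle list of their line, so ranks without any effect would also give members of each pattern. How many was not estimated, so the counts alone do not show an effect. The largest gap above vehicle in both lines was at an intergenic member 290063 bp from DIAPH2, at chrX:95648557-95650772. Its scores went from 69 on vehicle to 2322 on EGF and 1487 on HRG in SKBr3, and from 106 to 389 and 3100 in BT-474, and it held neither an ERRE word nor an AP-1 word near its centre. An intronic member whose nearest coding start, 49150 bp away, was that of SGPP1 held an AP-1 word and went from 148 to 1108 and 937 in SKBr3 and from 250 to 343 and 1730 in BT-474. Members near CA10, CT47C1 and MCTS2 had gaps of 34.7 to 48.8 points, beside 49.6 for DIAPH2. The largest gap below vehicle, 28.8 points, was at an intronic member nearest to the start of RGS6, a regulator of G protein signalling, from 703 on vehicle to 247 and 236 in SKBr3 and from 777 to 145 and 266 in BT-474. ARHGEF3, PDLIM4 and PLXNA2 followed, together with ATP5MC2, of the ATP synthase rotor ring, whose promoter went from 1383 to 616 and 598 in SKBr3 and from 1204 to 244 and 497 in BT-474. When the 4 growth factor lists were set against both vehicle lists, 291 members (4.53%) lay above and 261 (4.07%) below. Whether these counts exceed those of ranks without any effect was not tested. The 5 largest gaps were near DIAPH2, CA10, SGPP1, COL6A5 and POGK above, and near RGS6, ATP5MC2, BCL2L1, NIF3L1 and RUNX1 below. Of the energy gene promoters, 22 of 69 (31.9%) ranked below vehicle on both growth factors in both lines and 1 above, while of all promoter members 181 of 1014 (17.9%) ranked below and 67 (6.61%) above. By list, the counts were 10 of 20 below vehicle for complex I, 6 of 23 for complexes II to IV, 5 of 11 for ATP synthase and 1 of 15 (6.67%) for the tricarboxylic acid cycle, and the difference between these lists was not tested.

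**Figure D5:**
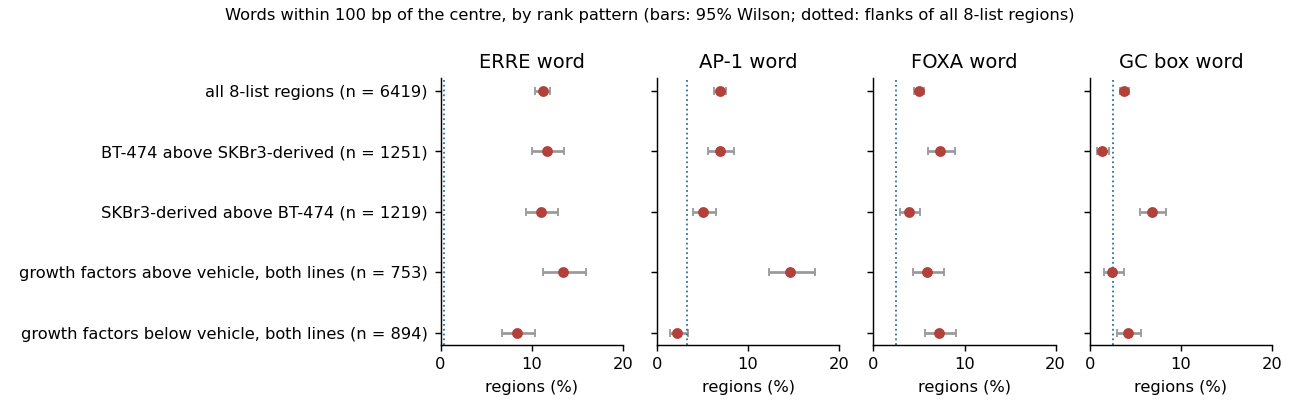
The share of members with the ERRE, AP-1, FOXA or GC box word within 100 bp of the centre is plotted with 95% Wilson intervals for all members and for 4 rank patterns, with the share in flanks of all members as a dotted line. The AP-1 word lies in 14.6% of members that ranked above vehicle on both growth factors in both lines and in 2.24% of those that ranked below.

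Between LRSKBr3 and pSKBr3, 648 members (10.1%) ranked higher in the resistant line by over 20 points and 632 (9.85%) lower. The AP-1 word lay in 8.18% of the former (6.31% to 10.5%) and 5.54% of the latter (4.01% to 7.6%). The ERRE word lay in 8.95% (6.99% to 11.4%) and 12.2% (9.86% to 15%), and for both words the intervals overlapped. Promoters made up 7.87% (6.04% to 10.2%) of those higher in LRSKBr3 and 13.4% (11.0% to 16.3%) of those lower, and these intervals did not overlap. The largest gaps in favour of LRSKBr3 were near MTUS1, CDH9, ABHD2, NFIB and MMADHC, and the member near NFIB had a score of 77 in pSKBr3 and 1364 in LRSKBr3, beside 2725 in SKBr3 vehicle. The largest the other way were near AUTS2, PFKP, GPIHBP1, ZSCAN20 and SH3GL2. The promoter of PFKP, a phosphofructokinase gene, had a score of 2057 in pSKBr3 and 292 in LRSKBr3, beside 1274 in SKBr3 vehicle. At the AUTS2 member, 784633 bp from a start, the scores were 938 in pSKBr3, 79 in LRSKBr3 and 144 in SKBr3 vehicle.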

How the data were processed

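The authors aligned reads to hg19 with BWA 0.5.9 (SAMtools 0.1.18 is also named in the submitters' processing notes) and called peaks with MACS. The deposited lists give each peak's position and score, the authors' −10 log10 of the P value. No tag counts, inputs or reads were used here. Members and gene lists were chosen with earlier results of these data known.

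Peaks were merged with Python 3.11.15, pandas 2.3.3 and numpy 2.4.6. The strongest peak of a list gave the score of a region, and percentiles split ties equally. Sequences came from GRCh37 (pysam 0.24.0, samtools 1.23.1), starts from protein-coding transcripts of GENCODE v44lift37, and intervals from scipy 1.17.1. Figures were drawn with matplotlib 3.10.9. Merging and word search were tested on simulated data. The nearest gene is the protein-coding gene with the nearest start.

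Named regions are the 10 strongest by lowest percentile, the 5 weakest, the 5 strongest 7-list regions, the 5 with most ERRE words, the 5 widest, and the 5 with the largest gap in each rank comparison. Named genes were drawn from those with a member and an ERRE word, those missing from short lists, and genes the paper names for ERRα binding. Not all of these are named. Other genes, including the score examples of the gene lists, and the further members printed with sequence were chosen after their values were seen. Alternatives concerned the score, overlap, window, distance and lists.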

Additional observations from a re-analysis of the deposited data

Results flagged for a closer look

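At some members the ranks on both growth factors lay on opposite sides of the vehicle rank in the 2 cell lines. EGF and HRG both ranked above vehicle in SKBr3 and both below vehicle in BT-474 at 566 members (8.82%), of which 21.6% were promoters. They both ranked below vehicle in SKBr3 and above it in BT-474 at 588 members (9.16%), of which 5.95% were promoters. The EGF and HRG lists of a line share its vehicle list, each condition has 1 list, and the difference between the lines was not tested. Ranks without any effect would also give such members, since vehicle can rank lowest or highest in a line by chance. How many was not estimated, so these counts do not show an effect of the growth factors.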

How the results depend on the processing

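The number of members was 4862 at a score of at least 80, 4236 at 100 and 4939 with lists of equal size. It was 6301 with a base covered by all lists and 4967 with peaks of 250 bp to each side. Without any single list, a rule that asks for fewer lists, it was 6531 to 7517. Of regions, 11808 were called in all 5 SKBr3-derived lists and 19087 in all 3 BT-474 lists. The promoter share was 11.4% within 500 bp, 27.2% within 5 kb, 25.1% with starts of all annotated genes and 16.9% at a score of 100. The ERRE share was 7.17% within 50 bp, 16.7% within 250 bp, 26.1% anywhere in the region, 9.99% and 9.94% around the SKBr3 and BT-474 vehicle peaks, 12.7% around the bases all lists cover, 12.4% without promoters, 15.7% for TNAAGGTCA and 34.6% for AAGGTCA. The AP-1 share was 3.37% within 50 bp, 15.2% within 250 bp, 52.1% anywhere in the region, 7.57% around the bases all lists cover and 7.83% without promoters.

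Within 1 kb instead of 20 kb, 1186 genes had a member. The counts within 1 kb were 4 for mitochondrial DNA, 4 for fatty acid oxidation, 3 for glutamine, 1 for ERR genes, 2 for PI3K, 5 for the lysosome, 1 each for ERBB, AP-1, luminal and clock genes, 4 for the cell cycle, 0 for ion channels, 4 for cytosolic ribosomal proteins, 4 for the proteasome, and 1 each for olfactory receptors and keratins. Within 10 kb they were 4 for mitochondrial DNA, 4 for glutamine, 1 for ERR genes, 7 for the lysosome, 4 for AP-1 and 5 for luminal genes, 0 for ion channels, 10 for cytosolic ribosomal proteins, 6 for the proteasome, 3 for olfactory receptors and 8 for keratins. At a score of 100, the tricarboxylic acid cycle had 13 genes, mitochondrial DNA 2, PI3K 3 and keratins 6, while 23 of 27 gene counts stayed within 1.5 times.

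Members ranked higher in BT-474 numbered 1315 to 1436 without any single list, and members ranked higher in SKBr3-derived lists 1282 to 1461. This alternative was chosen after seeing the data. The ranks were kept, so leaving out a list could only raise these counts, and they do not show how stable the pattern is. With summed scores the rank counts stayed within 1.5 times. The AP-1 shares of members that ranked above or below vehicle, recomputed after seeing the data without promoters or without members at 3100, were 15.6% and 13.3% above and 2.66% and 2.20% below. No paired analysis was possible because each condition has 1 list, and no test was made. Read depth is unknown, so its effect on the lists could not be measured.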
